A study of Mus musculus with 12 samples.

Results

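The EphB receptors and the ephrin-B ligands form one arm of the Eph signalling system. The 8 genes described here are the receptors Ephb1, Ephb2, Ephb3, Ephb4 and Ephb6 and the ligands Efnb1, Efnb2 and Efnb3, picked by gene symbol from the 55359 genes of the count files. RNA was sequenced in bulk from the mouse thalamus at postnatal day 0. The tissue was the ventroposterior medial nucleus, the relay that passes touch on the face to the somatosensory cortex. The antero-lateral barrel subfield territory (ALBSF) serves the upper lip and the postero-medial barrel subfield territory (PMBSF) serves the whisker pad. The groups are embWPC ALBSF, Ctrl PMBSF and Ctrl ALBSF, with 4 libraries in each.

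All 12 libraries came from newborn mice. The pups of embWPC ALBSF had the treatment that the labels call embWPC, a name used here as given because the labels do not spell it out. Ctrl PMBSF and Ctrl ALBSF came from pups labelled as controls, so these groups share the control label and both ALBSF groups share the territory. How the control pups were handled is not given in the labels. No strain, sex or genotype is named in the labels used here. Each library held tissue from 5 pooled brains. A replicate is therefore a pool of pups, and the p-values weigh a difference between groups against the spread between pools.

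Eph receptors are receptor tyrosine kinases that bind ephrins on the surface of a neighbouring cell. Ephrin-B ligands cross the membrane, so contact signals forward into the cell with the receptor and in reverse into the cell with the ligand. In the developing nervous system the EphB and ephrin-B pairs are known for axon guidance, for boundaries between cell groups and for building excitatory synapses. Outside neurons, Efnb2 marks arteries and Ephb4 marks veins. Ephb6 lacks a working kinase and signals through its partners.

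The receptor genes lie on 5 chromosomes of the GRCm39 genome. Ephb1 (ENSMUSG00000032537) is at chr9:101799327-102231898 on the minus strand and Ephb2 (ENSMUSG00000028664) at chr4:136374850-136563351 on the minus strand. Ephb3 (ENSMUSG00000005958) is at chr16:21023495-21042057, Ephb4 (ENSMUSG00000029710) at chr5:137348274-137376931 and Ephb6 (ENSMUSG00000029869) at chr6:41581983-41600264, all on the plus strand. Of the ligand genes, Efnb1 (ENSMUSG00000031217) is at chrX:98179680-98205454 on the plus strand, Efnb2 (ENSMUSG00000001300) at chr8:8667226-8711249 on the minus strand and Efnb3 (ENSMUSG00000003934) at chr11:69444918-69451323 on the minus strand. All 8 are protein-coding, and a count takes in the exons of the whole gene.

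All 8 genes had counts in every library, between 48 counts (Efnb2) and 2054 counts (Efnb3), and all 8 passed the filter on low counts. Library totals were 31712820 to 33702453 counts in embWPC ALBSF, 31921767 to 34512840 in Ctrl PMBSF and 28457046 to 31850727 in Ctrl ALBSF. The vesicular glutamate transporter gene Slc17a6, which marks thalamic relay neurons, stood at 366 to 430 CPM (counts scaled to a common library size), 349 to 404 CPM and 336 to 391 CPM in the same order of groups. Gad2, a GABA synthesis gene that relay neurons of the rodent nucleus lack, stood at 1.14 to 6.11 CPM in embWPC ALBSF, 2.23 to 7.47 CPM in Ctrl PMBSF and 0.959 to 8.37 CPM in Ctrl ALBSF. Slc17a6 was thus high in every library, but the list of 16 relay neuron genes that holds it was not level. Its mean log2 CPM was 5.81 to 6.42 in embWPC ALBSF, 5.86 to 6.18 in Ctrl PMBSF and 6.27 to 6.43 in Ctrl ALBSF, so all Ctrl PMBSF libraries lay below all Ctrl ALBSF libraries. In bulk tissue, fewer cells of a type and less RNA per cell cannot be told apart.

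In these data 1 of the 8 genes passed the test, in 1 of 3 comparisons. Ephb6 was lower in Ctrl PMBSF than in Ctrl ALBSF, with a fold of 0.653 (1 of the 8 called, against 1.62% of all genes tested in that comparison). Its 250 bases before the gene start are printed beside those of Efnb1, because these were the 2 genes whose embWPC ALBSF libraries all lay below those of Ctrl ALBSF. Bases in capitals spell GGGCGG or its reverse complement, the GC box that Sp-family factors can bind. Both stretches were read 5′ to 3′ on the gene's strand (plus) of the GRCm39 genome.
Ephb6, chr6:41581733-41581982: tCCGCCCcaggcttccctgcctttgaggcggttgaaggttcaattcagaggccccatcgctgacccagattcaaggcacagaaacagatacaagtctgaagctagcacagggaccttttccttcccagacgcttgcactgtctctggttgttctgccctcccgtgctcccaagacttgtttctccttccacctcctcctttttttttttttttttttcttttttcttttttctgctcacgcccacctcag
Efnb1, chrX:98179430-98179679: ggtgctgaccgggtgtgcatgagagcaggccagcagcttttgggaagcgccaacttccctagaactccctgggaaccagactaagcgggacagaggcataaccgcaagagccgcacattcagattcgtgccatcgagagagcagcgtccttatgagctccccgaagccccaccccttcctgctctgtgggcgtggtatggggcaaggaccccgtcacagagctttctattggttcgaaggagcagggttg

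The Ephb6 stretch was 50.0% G and C and held 1 GC box, near its far end. The Efnb1 stretch was 59.2% G and C and held none of these letters. The median over 21757 protein-coding genes was 51.2%. Such a stretch was read for Ephb1, Ephb2, Ephb3, Ephb4, Ephb6, Efnb1 and Efnb2, and 4 of these 7 held a GC box, against 29.9% of the protein-coding genes. The E-box letters CANNTG were in 4 of the 7, against 66.5% of all. AGGTCA, the letters of a nuclear receptor site, were in 1 of the 7, against 13.9% of all, and TATAAA was in 1, against 12.5%. Each motif was searched on both strands and apart from the others, so matches of different motifs may overlap. Efnb3 was not read. These are matches of letters and carry no measurement of binding.

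The order of abundance was set by dividing CPM by the length of the canonical transcript, which allows genes to be compared. Efnb3, a ligand that repels corticospinal axons at the midline in mice, was the most abundant in all 12 libraries, at 15.3 ± 2.04 CPM per kb (SD over 12 libraries). Ephb1, a kinase-active receptor, followed at 4.58 ± 0.855 CPM per kb and Ephb6 at 4.27 ± 0.947 CPM per kb. These receptors lay close together, and Ephb1 was above Ephb6 in 9 of 12 libraries. With the length of all exons together they were farther apart, at 3.04 CPM per kb for Ephb1 and 2.35 for Ephb6, with Ephb1 above in 11 of 12. Below them were Efnb1 at 2.36 ± 0.473 CPM per kb, Ephb3 at 1.98 ± 0.259 and Ephb2 at 1.54 ± 0.273. Efnb1 was above Ephb3 in 9 libraries and Ephb3 above Ephb2 in 11, but with the length of all exons together Ephb2 came above Ephb3 in 8 of 12. Last came Ephb4 at 0.619 ± 0.113 CPM per kb and Efnb2 at 0.472 ± 0.118, with Ephb4 above Efnb2 in 10 of 12 libraries.

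**Figure D1:**
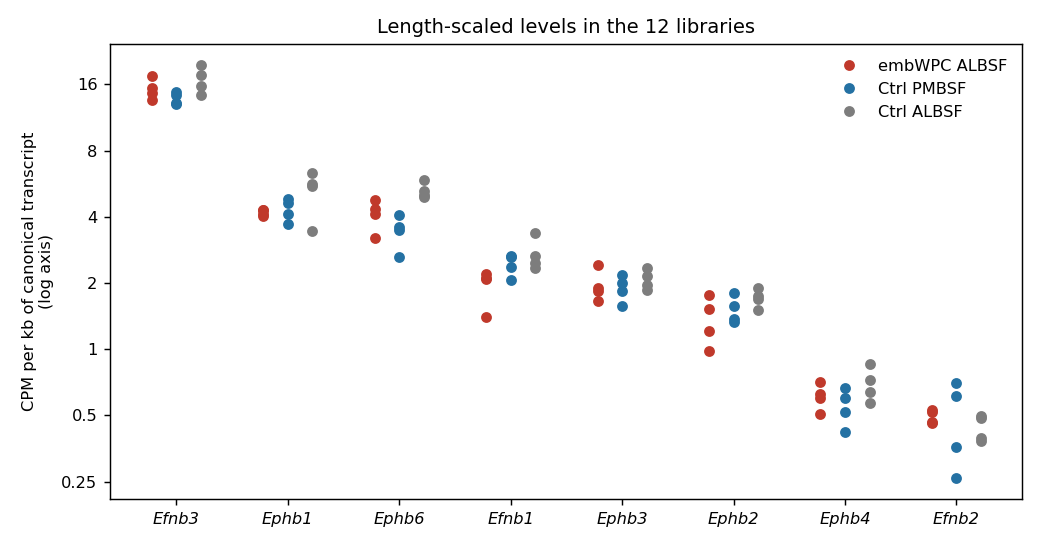
Length-scaled level (CPM per kb of canonical transcript, log axis) of the 8 genes in each of the 12 libraries, ordered by mean, with points coloured by group. Efnb3, at 15.3 CPM per kb on average, lies above all others, and Ephb4 and Efnb2 lie below 1 CPM per kb in every library.

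Among the ligands Efnb3 thus carried most of the length-scaled level, with 86.1% ± 2.7 of the sum of the 3 ligands in embWPC ALBSF, 82.6% ± 1.79 in Ctrl PMBSF and 84.2% ± 1.53 in Ctrl ALBSF (SD, n = 4 each). Among the 5 receptors, Ephb6 held 33.4% ± 2.12 of the sum in embWPC ALBSF, 29.4% ± 5.17 in Ctrl PMBSF and 35.3% ± 2.91 in Ctrl ALBSF. Ephb1 held 34.6% ± 3.84, 36.8% ± 3.41 and 34.5% ± 4.57 in the same order. The Ephb6 share was below that of Ephb1 in Ctrl PMBSF and within an SD of it in the ALBSF groups. The summed receptor level was 10.5 to 13.3 CPM per kb in embWPC ALBSF, 11.2 to 12.6 in Ctrl PMBSF and 12.5 to 16.7 in Ctrl ALBSF. The summed ligand level was 16.1 to 19.5, 15.7 to 17.6 and 17.1 to 22.8 CPM per kb in that order. The sums are a description of levels and were not tested.

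Ctrl PMBSF was set against Ctrl ALBSF to see whether the whisker pad and upper lip territories differ in these genes. Among the receptors, Ephb6 had 17.0, 10.9, 14.4 and 14.9 CPM in the Ctrl PMBSF libraries 1 to 4, against 24.5, 21.8, 20.9 and 20.4 CPM in the Ctrl ALBSF libraries. Every Ctrl PMBSF library lay below every Ctrl ALBSF library, and the lowest was Ctrl PMBSF 2. The means were 14.3 ± 2.54 CPM in Ctrl PMBSF and 21.9 ± 1.84 CPM in Ctrl ALBSF (SD, n = 4 each). The log2 difference of Ephb6 was -0.61 ± 0.14 (SE; 95% interval -0.91 to -0.32), with an adjusted p of 0.0376 by edgeR's quasi-likelihood test with Benjamini-Hochberg adjustment over 17501 genes. Ephb6 was the only one of the 8 genes called at an adjusted p under 0.05, and 0.811% of all genes were called lower. It was also the only one whose libraries did not overlap, against 3.62% of all genes without overlap and lower in Ctrl PMBSF. Of the 8 values 7 were below 0, against 49.0% of all genes, with a median of -0.23 against 0.00 over all genes. This lean was not particular to the 8 genes. Below 0 were also 17 of 20 endothelial genes (median -0.23), 12 of 12 microglial, 8 of 9 pericyte and 6 of 6 red blood cell genes. Of 16 meningeal genes 15 were above 0, and the 14 EphA and ephrin-A genes had 7 on each side. The part of these cell types in the 8 values was not tested. DESeq2 and limma voom each called Ephb6 and no other of the 8, against 2.77% and 2.53% of the genes they tested.

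Ephb1, which guides retinal axons, had 19.3, 21.7, 22.5 and 17.3 CPM in Ctrl PMBSF, against 29.5, 26.4, 25.9 and 16.2 CPM in Ctrl ALBSF. Ctrl ALBSF 1, 2 and 3 were above all of Ctrl PMBSF, and Ctrl ALBSF 4 was below all of them. The log2 difference was -0.28 ± 0.15 (95% interval -0.59 to 0.03), with an adjusted p of 0.495 in the same edgeR fit. Without Ctrl ALBSF 4 the difference was -0.43, with an adjusted p of 0.0647, and without Ctrl ALBSF 1 it was -0.18. Markers of prethalamic GABAergic neurons varied over these libraries as well. The mean log2 CPM of the 13 of 16 listed prethalamic genes that were tested was 1.54, 2.10, 1.88 and 0.28 in Ctrl PMBSF 1 to 4, and 2.46, 1.53, 0.91 and -0.53 in Ctrl ALBSF 1 to 4. Within each control group both Ephb1 and these markers were lowest in library 4. In embWPC ALBSF, library 4 was also lowest for Ephb1, at 18.8 CPM, but highest for these markers, at 1.78. With the mean of the endothelial genes as a covariate the Ephb1 difference was -0.09 ± 0.15, and with that of the meningeal genes -0.29 ± 0.20. The part of any of these cell types in the Ephb1 level was not tested.

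The other receptors did not pass the test. Ephb2, which acts at excitatory synapses with NMDA receptors, ranged over 14.6 to 19.8 CPM in Ctrl PMBSF and 16.6 to 20.9 CPM in Ctrl ALBSF, a log2 difference of -0.17 (95% interval -0.51 to 0.16). Ephb3, a receptor that acts with Ephb2 in guiding commissural axons, ranged over 6.56 to 9.11 CPM in Ctrl PMBSF and 7.80 to 9.86 CPM in Ctrl ALBSF, a difference of -0.14 (95% interval -0.43 to 0.15). Ephb4, the venous receptor, ranged over 1.84 to 2.89 CPM in Ctrl PMBSF and 2.49 to 3.73 CPM in Ctrl ALBSF, a difference of -0.34 (95% interval -0.74 to 0.06). All 3 had overlapping groups and intervals that include 0.

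Among the ligands, Efnb3 had 49.7, 45.8, 45.1 and 51.5 CPM in Ctrl PMBSF, against 61.6, 68.4, 50.0 and 54.9 CPM in Ctrl ALBSF. The groups overlapped only through Ctrl PMBSF 4, which lay above Ctrl ALBSF 3. The log2 difference of Efnb3 was -0.29 ± 0.10 (95% interval -0.50 to -0.08), with an adjusted p of 0.217 by edgeR's quasi-likelihood test. With Ephb6 it made 2 of the 8 genes at an unadjusted p under 0.05, against 11.8% of all genes. Efnb1, whose loss causes craniofacial and skeletal defects in mice, had 8.78, 8.75, 6.86 and 7.82 CPM in Ctrl PMBSF, against 11.2, 8.79, 7.78 and 8.13 CPM in Ctrl ALBSF, a difference of -0.16 (95% interval -0.49 to 0.17) and of -0.03 without Ctrl ALBSF 1. Efnb2, the arterial ligand, spread most within Ctrl PMBSF, at 1.30, 3.07, 3.53 and 1.79 CPM, against 1.92, 2.50, 1.97 and 2.45 CPM in Ctrl ALBSF. The log2 difference of Efnb2 was 0.13 (95% interval -0.43 to 0.69), its Ctrl PMBSF libraries lay on both sides of Ctrl ALBSF, and without single libraries it ran from -0.11 to 0.33.

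**Figure D2:**
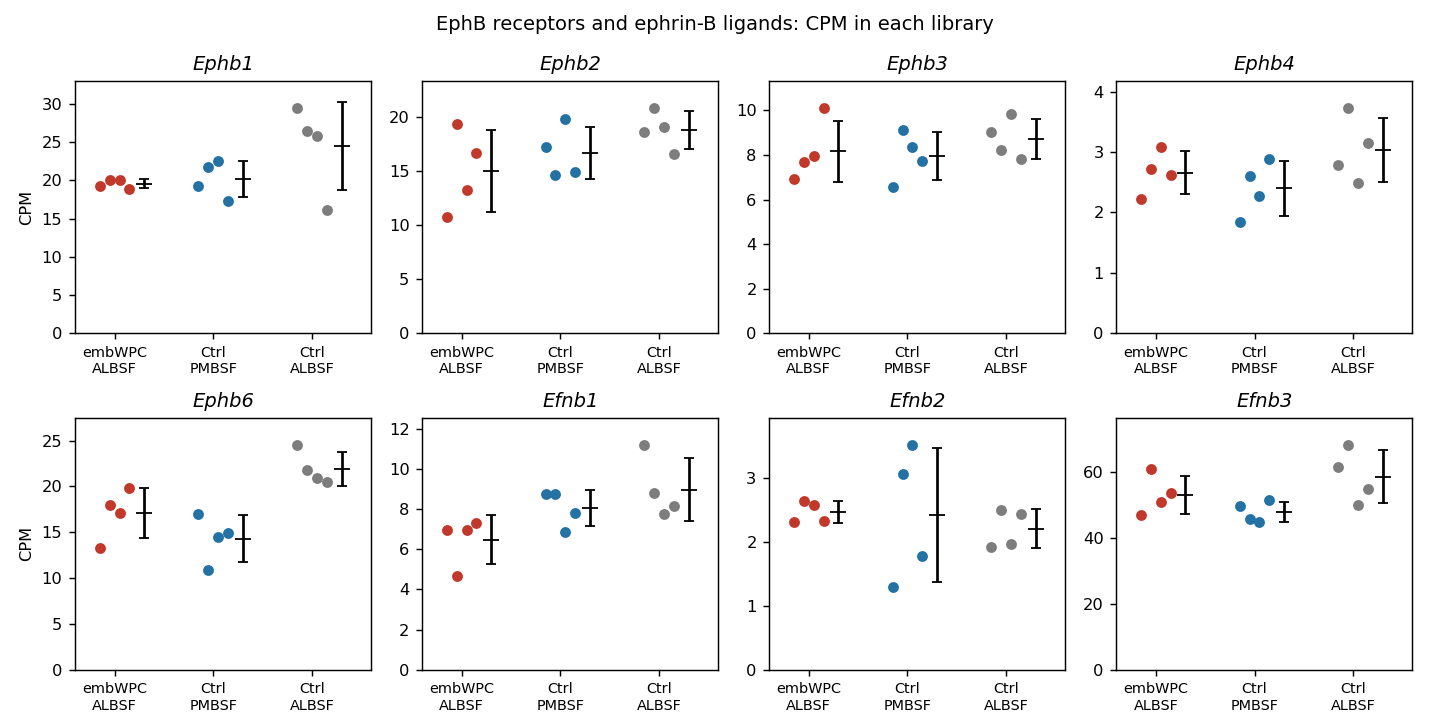
CPM of each of the 8 genes in each library (points), with the group mean and SD (bars, n = 4) to the right of the points, and embWPC ALBSF, Ctrl PMBSF and Ctrl ALBSF from left to right. The 4 Ctrl PMBSF points of Ephb6, 10.9 to 17.0 CPM, all lie below the Ctrl ALBSF points, 20.4 to 24.5 CPM.

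Same-numbered control libraries varied together across genes, with correlations of 0.265 to 0.562. They were taken as pairs on that ground, since the labels do not say what a number marks. The pairing is thus an assumption drawn from these same data, and each pair is read alone here. Ephb6 gave a log2 difference of -0.53, -0.999, -0.53 and -0.45 in the pairs 1 to 4, Ctrl PMBSF minus Ctrl ALBSF. It was below 0 in 4 of 4 pairs, and the largest difference was in pair 2. Efnb3, Efnb1 and Ephb4 were also below 0 in 4 of 4 pairs, although pair 2 of Efnb1 was at -0.01. Ephb1, Ephb2 and Ephb3 were below 0 in 3 of 4 pairs, and Efnb2 in 2 of 4. With the pair number as a block in a fit of the 8 control libraries, Ephb6 gave -0.62 ± 0.09 and an adjusted p of 0.00308 by edgeR's quasi-likelihood test, and 857 genes were called (5.04% of those tested) in place of 284. Ephb6 stayed the only one of the 8 genes called, and Efnb3 had an adjusted p of 0.0624 in that fit.

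**Figure D3:**
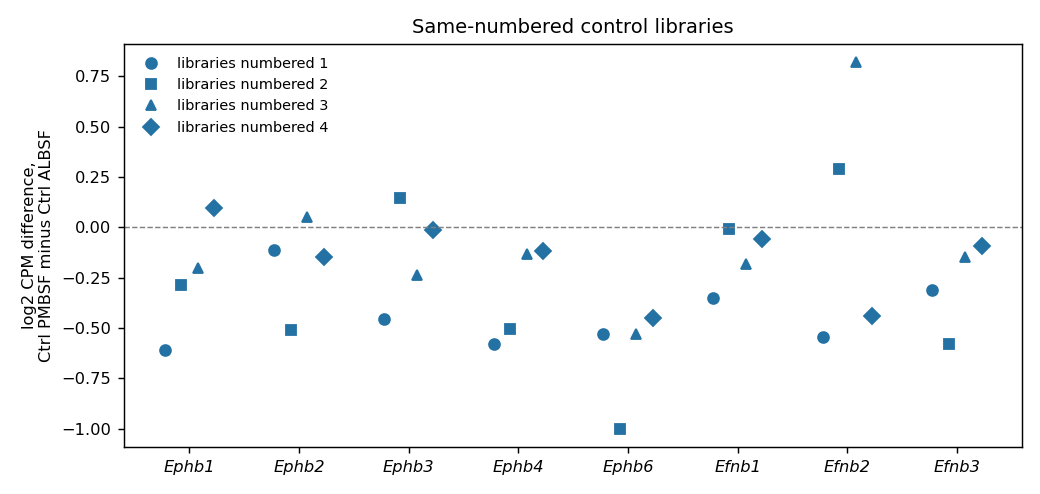
Log2 CPM difference (Ctrl PMBSF minus Ctrl ALBSF) of the 8 genes in each of the 4 pairs of same-numbered control libraries, with a marker shape for each number and a dashed line at 0. All 4 Ephb6 points lie between -0.999 and -0.45, while the Efnb2 points lie on both sides of 0.

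The Ephb6 call depended on the libraries and on the covariates in the fit. It was lost in 12 of 24 alternative fits, among them 8 of the 12 that left out 1 library. Adjusted p values over the 24 were 0.00271 to 0.278 by edgeR's quasi-likelihood test, DESeq2 or limma voom. The main fit and those that left out 1 library did not use the pairing of control libraries, and the paired fit above kept the call. The block on 12 libraries, among the fits that lost it, also grouped embWPC ALBSF libraries by number, although these did not vary with the controls. Without Ctrl PMBSF 2 the log2 difference of Ephb6 was -0.50 and the adjusted p 0.0965. The mean log2 CPM of 16 meningeal fibroblast genes was 1.01, 2.85, 1.90 and 2.06 in Ctrl PMBSF 1 to 4, and 0.77, 1.30, 1.09 and 1.18 in Ctrl ALBSF 1 to 4. Of these 16 genes 15 were above 0 in the comparison (9 had an unadjusted p under 0.05, edgeR called 0, and DESeq2 and limma voom called 2 each), and their summed CPM was 84.7 to 201 in Ctrl PMBSF and 56.5 to 166 in Ctrl ALBSF. No gene of the list was at 0 in all libraries. Ctrl PMBSF 2 was the highest of all 12 libraries for this list and the lowest for Ephb6. Ctrl PMBSF 1 lay within the Ctrl ALBSF range for the list but below every Ctrl ALBSF library for Ephb6. With the list mean as a covariate, the Ephb6 difference was -0.31 with an adjusted p of 0.278 by edgeR's quasi-likelihood test. In that fit Ephb4 was at -0.60, with an adjusted p of 0.236. Ctrl PMBSF 2, 3 and 4 lay above all Ctrl ALBSF libraries for the list, so list and territory cannot be fully told apart. The part of meningeal tissue in the Ephb6 difference was not tested. Relay neuron genes differed in this comparison too, with 11 of 16 below 0 and, by edgeR, 4 called lower and 1 called higher, against 1.62% of all genes called. The list median was -0.09, with 5 of 16 above 0, and Slc17a6 averaged 379.5 CPM in Ctrl PMBSF and 370.0 CPM in Ctrl ALBSF. Rorb, a nuclear receptor of that list chosen after its value was seen, was at -1.17 ± 0.12. The list's mean was lowest of the control libraries in Ctrl PMBSF 2, and its part in the Ephb6 difference was not tested. The collagen gene Col3a1, a fibroblast marker, was at 2.86, 23.7, 8.54 and 5.90 CPM in Ctrl PMBSF, against 2.67 to 3.77 CPM in Ctrl ALBSF.

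Counts may also be affected where genes overlap on opposite strands, since the strand setting is not given in the sources used here. Trpv6, a calcium channel gene on the opposite strand from Ephb6, overlaps its exons and had 16 to 59 counts, against 354 to 756 for Ephb6. Over all libraries Trpv6 held 5.59% of the Ephb6 count. On the opposite strand likewise, Zan at Ephb4 reached 7 counts (4.29% of the Ephb4 count over all libraries). The gene 4921522P10Rik at Efnb2 reached 11 counts (7.48% of the Efnb2 count). These percentages do not measure how many reads were lost or shared.

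embWPC ALBSF was set against Ctrl ALBSF to see what embWPC does within one territory. None of the 8 genes was called by edgeR's quasi-likelihood test at an adjusted p under 0.05, where 0.0629% of all genes were called, and DESeq2 and limma voom called 0 of the 8 as well, against 1.07% and 0.429% of their genes. At an unadjusted p under 0.05 there were 3 of 8, Efnb1, Ephb6 and Ephb1, against 9.22% of all genes. Of the 8 values 7 were below 0, against 52.5% of all genes, and the median of the 8 log2 differences was -0.26, against -0.01 over all genes. Several cell type lists leaned below 0 as well. Of 16 relay neuron genes 12 were below 0 and 4 above, with a median of -0.16. By edgeR 6 of them were at an unadjusted p under 0.05 and 0 were called, while DESeq2 called 3 and limma voom 2. Below 0 were also 14 of 16 radial glia and astrocyte, 12 of 12 microglial and 6 of 6 red blood cell genes, but 10 of 20 endothelial genes. Their part in the differences of the 8 genes was not tested.

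Efnb1 had 6.95, 4.65, 6.98 and 7.31 CPM in embWPC ALBSF, against 11.2, 8.79, 7.78 and 8.13 CPM in Ctrl ALBSF. All embWPC ALBSF libraries lay below all Ctrl ALBSF libraries, by a narrow margin, and embWPC ALBSF 2 stood apart as the lowest. The log2 difference of Efnb1 was -0.47 ± 0.16 (95% interval -0.81 to -0.14), with an adjusted p of 0.347 by edgeR's quasi-likelihood test. Ephb6 had 13.3, 18.0, 17.1 and 19.8 CPM in embWPC ALBSF, against 24.5, 21.8, 20.9 and 20.4 CPM in Ctrl ALBSF. These groups did not overlap either, with embWPC ALBSF 4 just under Ctrl ALBSF 4. The log2 difference of Ephb6 was -0.36 ± 0.14 (95% interval -0.65 to -0.07), with an adjusted p of 0.440 in that fit. With the meningeal covariate Ephb6 was -0.57 ± 0.12, with an adjusted p of 0.0586 by edgeR's quasi-likelihood test. The meningeal mean did not overlap between the groups, at 0.20 to 0.70 in embWPC ALBSF and 0.77 to 1.30 in Ctrl ALBSF. The adjusted difference thus rests on levels the groups do not share. Of the 16 meningeal genes 14 were below 0 here, with a median of -0.47, 2 at an unadjusted p under 0.05, and 0 called by edgeR or limma voom and 1 by DESeq2. Efnb1 and Ephb6 were thus 2 of 8 genes with no overlap, both lower in embWPC ALBSF, against 2.7% of all genes without overlap in that direction.

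Ephb1 had 19.3, 20.1, 20.1 and 18.8 CPM in embWPC ALBSF, against 29.5, 26.4, 25.9 and 16.2 CPM in Ctrl ALBSF. The embWPC ALBSF libraries were within 2 CPM of each other and lay inside the range of Ctrl ALBSF. The log2 difference of Ephb1 was -0.32 ± 0.15 (95% interval -0.64 to -0.01), with an adjusted p of 0.530 by edgeR's quasi-likelihood test. It was -0.22 without Ctrl ALBSF 1 and -0.48 without Ctrl ALBSF 4. The prethalamic mean log2 CPM was -0.06, 0.33, 0.45 and 1.78 in embWPC ALBSF 1 to 4, and 12 of the 13 genes of that list were below 0 in this comparison, with 1 at an unadjusted p under 0.05 and 0 called by edgeR, DESeq2 or limma voom. Their part in the Ephb1 difference was not tested.

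Ephb2 had 10.7, 19.3, 13.3 and 16.7 CPM in embWPC ALBSF, against 18.6, 20.9, 19.1 and 16.6 CPM in Ctrl ALBSF. It varied more in embWPC ALBSF, where 2 libraries lay inside the Ctrl ALBSF range and 2 below it, and its log2 difference was -0.32 (95% interval -0.66 to 0.01). The difference was -0.19 without embWPC ALBSF 1 and -0.47 without embWPC ALBSF 2. Ephb3 gave -0.09 (95% interval -0.39 to 0.20) and Ephb4 -0.19 (95% interval -0.59 to 0.21). Efnb3 gave -0.14 (95% interval -0.36 to 0.07), with 47.1 to 60.9 CPM in embWPC ALBSF and 50.0 to 68.4 CPM in Ctrl ALBSF. Efnb2 was the single member above 0, at 0.16 (95% interval -0.40 to 0.72), with 2.31 to 2.65 CPM in embWPC ALBSF and 1.92 to 2.50 CPM in Ctrl ALBSF. Groups overlapped for all of these 5 genes.

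embWPC ALBSF was last set against Ctrl PMBSF. None of the 8 genes was called by edgeR's quasi-likelihood test, where 0.00571% of all genes were called, and 0 of 8 were at an unadjusted p under 0.05, against 9.47% of all genes. DESeq2 and limma voom called 0 of the 8, against 0.402% and 0.00571% of their genes. Of the 8 values 3 were below 0, against 53.4% of all genes. The groups overlapped for all 8, against 4.73% of all genes without overlap. Ephb6 had the widest step upward, with 13.3 to 19.8 CPM in embWPC ALBSF against 10.9 to 17.0 CPM in Ctrl PMBSF, and its log2 difference was 0.26 ± 0.14 (95% interval -0.04 to 0.55). Efnb1 had the widest downward, with 4.65 to 7.31 CPM in embWPC ALBSF and 6.86 to 8.78 CPM in Ctrl PMBSF, a difference of -0.31 ± 0.16 (95% interval -0.65 to 0.02). With the meningeal covariate, Ephb6 turned to -0.26, and without Ctrl PMBSF 2 it was 0.14. In the covariate fit Efnb2 was at 0.92 and Ephb4 at 0.58. The meningeal mean did not overlap between these groups, at 0.20 to 0.70 in embWPC ALBSF and 1.01 to 2.85 in Ctrl PMBSF. Differences from that fit thus rest on levels the groups do not share, and the change of sign is not read further. Of the 16 meningeal genes 15 were below 0 in this comparison, with a median of -1.79 and 12 at an unadjusted p under 0.05 (edgeR and limma voom called 0 and DESeq2 8). Without embWPC ALBSF 2, Efnb1 was -0.18. Ephb1 was near 0, at -0.05 (95% interval -0.36 to 0.27). The intervals still include differences of over 0.2 on the log2 scale for each of the 8 genes.

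**Figure D4:**
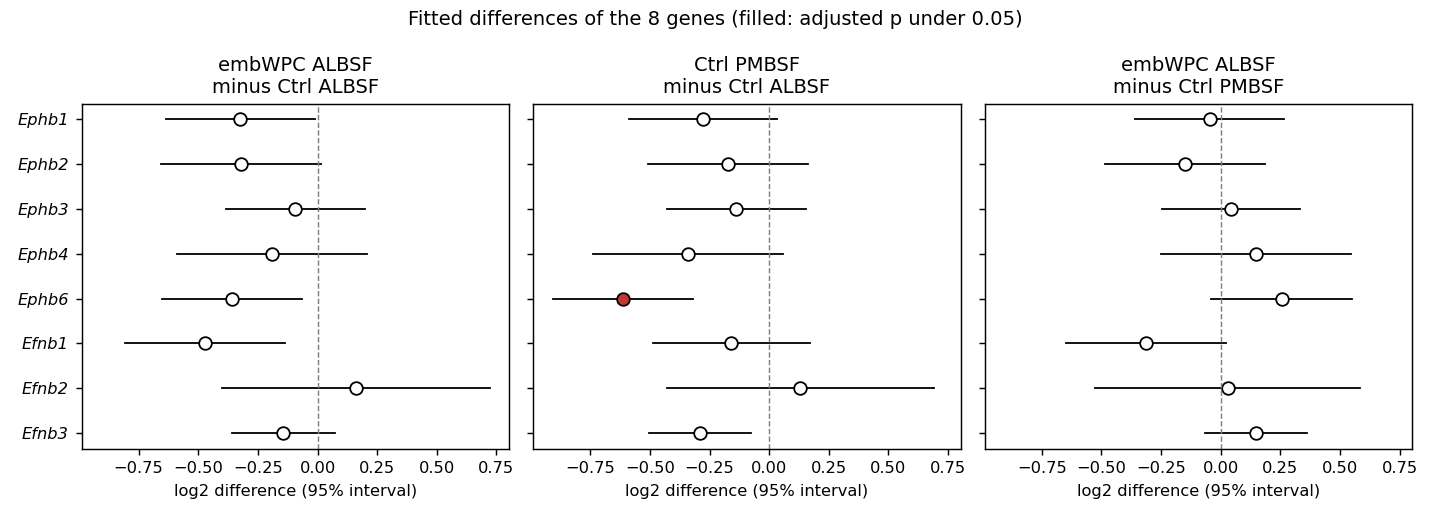
Fitted log2 differences of the 8 genes with 95% intervals in the 3 comparisons, with a filled point at an adjusted p under 0.05 and a dashed line at 0. The filled point is Ephb6 in Ctrl PMBSF minus Ctrl ALBSF (-0.61), and in embWPC ALBSF minus Ctrl ALBSF 7 of the 8 points lie below 0.

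The first pair of comparisons share the Ctrl ALBSF libraries, so they are given side by side and not as a likeness. Against Ctrl ALBSF, Ephb6 was at -0.36 in embWPC ALBSF and -0.61 in Ctrl PMBSF, Ephb1 at -0.32 and -0.28, and Efnb1 at -0.47 and -0.16. Efnb2 was at 0.16 and 0.13.

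Ephb4 and Efnb2 were read beside vessel markers. The 20 endothelial genes had a mean log2 CPM of 2.77 to 2.90 in embWPC ALBSF, 2.34 to 3.01 in Ctrl PMBSF and 2.62 to 3.02 in Ctrl ALBSF, and their summed CPM was 251 to 268, 211 to 292 and 243 to 308. Efnb2 stood at 1.30, 3.07, 3.53 and 1.79 CPM in Ctrl PMBSF 1 to 4, lowest in library 1. Ephb4 stood at 1.84, 2.61, 2.27 and 2.89 CPM in the same libraries, also lowest in library 1. The endothelial mean in Ctrl PMBSF 1 to 4 was 2.43, 3.01, 2.56 and 2.34, lowest in library 4. The 9 tested of 12 arterial genes had a mean log2 CPM of 1.07 to 1.49 in embWPC ALBSF, 0.45 to 1.32 in Ctrl PMBSF and 0.62 to 1.03 in Ctrl ALBSF. In Ctrl PMBSF 1 to 4 that mean was 0.95, 1.32, 0.61 and 0.45, again lowest in library 4, and low in library 3, where Efnb2 was highest. In Ctrl PMBSF against Ctrl ALBSF 17 of 20 endothelial and 6 of 9 arterial genes were below 0, with Ephb4 at -0.34 and Efnb2 at 0.13. In embWPC ALBSF against Ctrl PMBSF 17 of 20 endothelial and 9 of 9 arterial genes were above 0, with Ephb4 at 0.15 and Efnb2 at 0.03. In embWPC ALBSF against Ctrl ALBSF 10 of 20 endothelial and 4 of 9 arterial genes were below 0. The part of vessels in the levels of Ephb4 and Efnb2 was not tested.

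The EphA receptors and ephrin-A ligands, the other arm of the system, were all 14 tested. In Ctrl PMBSF against Ctrl ALBSF, edgeR's quasi-likelihood test called 1 higher and 1 lower of the 14, against 1.62% of all genes called. Epha4, which binds ephrin-B ligands as well as ephrin-A ligands, was lower at 91.9, 78.7, 105 and 104 CPM in Ctrl PMBSF, against 137, 127, 126 and 130 CPM in Ctrl ALBSF. No libraries overlapped, and the log2 difference of Epha4 was -0.45 ± 0.09 with an adjusted p of 0.0199, a call lost in 7 of 24 alternatives. Epha3, an EphA receptor, was higher, with a log2 difference of 0.33 ± 0.07 and an adjusted p of 0.0390. In embWPC ALBSF against Ctrl ALBSF, Epha4 was at 101 to 120 CPM and 126 to 137 CPM, a log2 difference of -0.28 ± 0.09 with an adjusted p of 0.328 by edgeR's quasi-likelihood test. None of the 14 was called there by edgeR, DESeq2 or limma voom, against 0.0629% of all genes called by edgeR, and 6 were at an unadjusted p under 0.05, against 9.22% of all genes.

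Genes that act with EphB receptors and ephrin-B ligands were counted in 3 lists. Forward signalling, the exchange factors and adaptors below the receptor, had 28 of 28 tested. Reverse signalling, the adaptors and PDZ proteins that bind the ligand tail, had 14 of 15 tested. Processing and partners, such as the proteases that cut these proteins and the receptors they join, had 19 of 21 tested. In Ctrl PMBSF against Ctrl ALBSF edgeR called 0 in each of the 3 lists, against 1.62% of all genes, with 4 genes of each list at an unadjusted p under 0.05, against 11.8% of all genes. DESeq2 called 1, 2 and 1, against 2.77% of all its genes, and limma voom 1, 0 and 1, against 2.53%. The medians were -0.02, -0.04 and -0.08, against 0.00 over all genes. In embWPC ALBSF against Ctrl ALBSF edgeR called 0 in each list, against 0.0629% of all genes, with 4, 2 and 2 at an unadjusted p under 0.05, against 9.22%, and the medians were 0.01, 0.05 and -0.12. DESeq2 called 1 gene of forward signalling and 0 of the other lists there, and limma voom 0 in all 3. Chosen after their values were seen, Zhx2, a transcriptional repressor of the reverse signalling list, stood at 0.68 ± 0.16 with an adjusted p of 0.0530, and Vav3, an exchange factor that Eph receptors recruit, at 0.35 ± 0.09 with an adjusted p of 0.0539. Both values are from Ctrl PMBSF against Ctrl ALBSF and lie just outside the threshold.

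The genes whose levels were most like those of Ephb6 were found over the 12 libraries. Likeness was the root mean square (RMS) difference in log2 CPM, each gene centred on its own mean, among genes of at least 1 CPM on average. Ephb6 itself varied with an RMS of 0.321. The nearest was Cobl, which nucleates actin filaments, at 0.109. Sec24d, a coat protein of vesicles leaving the endoplasmic reticulum, came next at 0.124 and Synpo2, an actin-binding protein, at 0.131. Ptger3, a prostaglandin E2 receptor, was at 0.135 and Car10, a carbonic anhydrase-related protein, at 0.150. In Ctrl PMBSF against Ctrl ALBSF these 5 had log2 differences of -0.54, -0.66, -0.80, -0.56 and -0.58 in that order, which follow from how they were picked.

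**Figure D5:**
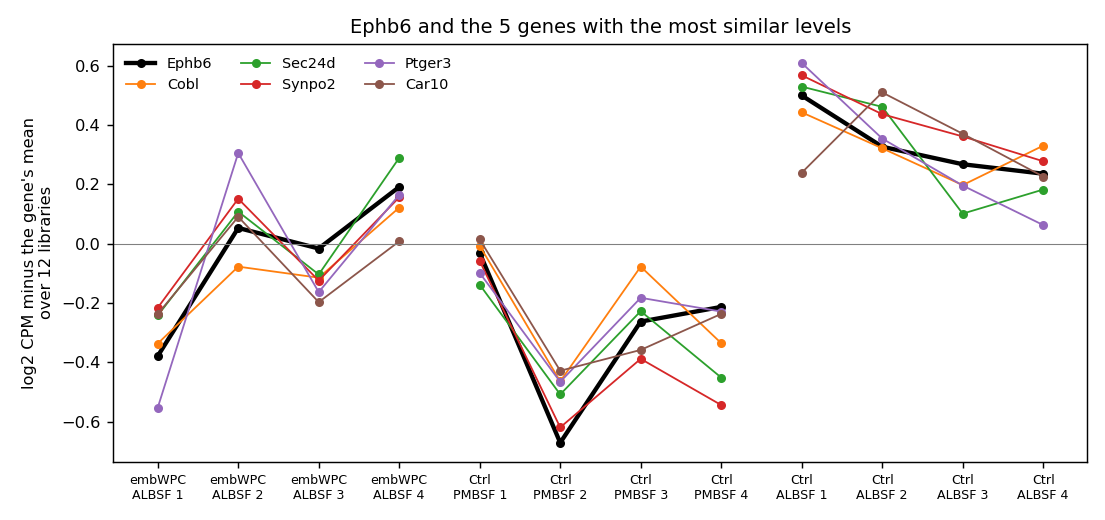
Log2 CPM of Ephb6 (black) and the 5 nearest genes, each minus its own mean over the 12 libraries, by library. All 6 genes lie above 0 in every Ctrl ALBSF library, and Ephb6 is lowest in Ctrl PMBSF 2, at -0.67.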

How the data were processed

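RNA was measured in 12 libraries of 3 groups. The deposited values are raw counts per gene, which the authors made with FastQC 0.11.9, STAR 2.7.9a on GRCm39, SAMtools 1.15 and featureCounts of Subread 2.0.1 with the genes of Ensembl release 104, per the submitters' processing notes and the series design. A second build, mm10, is listed in those notes. How strand was set and how reads that map to several places were counted is not given in the sources used here. Symbols and positions came from GENCODE M39, which held 54749 of the 55359 genes and 99.984% of the counts. The members, the gene lists and the tests were chosen with earlier results of these data known.

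R 4.3.3, edgeR 4.0.16, limma 3.58.1 and DESeq2 1.42.0 were used. One edgeR quasi-likelihood fit with group as the only term took all 12 libraries, with TMM scaling and filterByExpr by group, which left 17501 genes. The biological coefficient of variation was 15.8%. Benjamini-Hochberg adjustment ran over these genes, and adjusted p values under 0.05 were called. Intervals are 95% intervals of the fit. CPM used TMM library sizes, and log2 CPM a prior count of 2. The script was checked on simulated counts. No 2 libraries agreed within sampling noise (chi-square per degree of freedom of at least 12.89 between replicates). All members, the 5 genes nearest to a called member, Epha4 and the called genes of the EphA and the 3 pathway lists are named; genes of the cell type lists are given by counts and means, with single genes chosen after their values were seen.

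Alternatives were DESeq2, limma voom with quality weights, other scalings and filters, replicate blocks, a meningeal or an endothelial covariate, and leaving out each library. Same-numbered Ctrl PMBSF and Ctrl ALBSF libraries were taken as paired, because their deviations from the group means correlated at 0.473, 0.265, 0.401 and 0.562 for numbers 1 to 4; the labels do not say what a number marks. Promoter stretches were read from GRCm39 at GENCODE gene starts.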

Additional observations from a re-analysis of the deposited data

Results flagged for a closer look

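One of 24 groups examined, the 8 genes in 3 groups of 4 libraries, held a library far from its others. Efnb1 in embWPC ALBSF 2 was at 4.65 CPM, against 6.95 to 7.31 CPM in the other embWPC ALBSF libraries, a gap of 0.863 of the group's range, past the limit of Dixon's test at the 95% level. Chance gives about 1 such flag in 20 groups. The same library also stood apart for the relay neuron gene Gbx2, at 14.9 CPM against 1.86 to 3.31 CPM in the other embWPC ALBSF libraries. A link between these values was not tested. Efnb1 had a log2 difference of -0.47 against Ctrl ALBSF with all libraries, -0.34 without embWPC ALBSF 2, and -0.53 to -0.34 over all single libraries left out.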

How the results depend on the processing

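Of the recomputed log2 differences of the 8 genes and Epha4, 614 kept their direction and side of the threshold, 19 lost a call and 15 changed sign. The Ephb6 call in Ctrl PMBSF against Ctrl ALBSF was lost with library totals only (log2 difference -0.51, adjusted p 0.223, a scaling that moved the median of all genes by 0.103), with the replicate block on 12 libraries (adjusted p 0.0622), with the meningeal covariate (-0.31, 0.278) and with the endothelial covariate (-0.71, 0.0613), so members called became 0 under each. It was also lost without Ctrl ALBSF 1, 2, 3 or 4 (adjusted p 0.0977, 0.0936, 0.0912 and 0.0713), without Ctrl PMBSF 2, 3 or 4 (0.0965, 0.0886 and 0.0724) and without embWPC ALBSF 3 (0.0553), so members called ran from 0 to 1, while the Ephb6 difference over all single libraries left out stayed between -0.71 and -0.50. It was -0.62 with the block on 12 libraries. All p values named here are from edgeR's quasi-likelihood test.

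Counts of all genes called depended on the tool. In embWPC ALBSF against Ctrl ALBSF there were 11, and 175 by DESeq2, 75 by limma voom, 7 with library totals only, 121 with no filter, 5 with at least 1 CPM in 4 libraries, 44 and 20 with the meningeal and the endothelial covariate, and 1 to 37 without single libraries. In Ctrl PMBSF against Ctrl ALBSF there were 284, and 507 by DESeq2, 443 by limma voom, 189 with the endothelial covariate and 127 to 282 without single libraries, with 160, 127 and 155 without Ctrl ALBSF 2, 3 and 4 and 163 without Ctrl PMBSF 2. In embWPC ALBSF against Ctrl PMBSF there was 1, and 71 by DESeq2, 72 with no filter, 113 and 10 with the meningeal and the endothelial covariate, and 1 to 3 without single libraries. The causes were not tested.

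The replicate block on the 2 groups compared gave 1, 857 and 0 genes in the same order of comparisons, and on 12 libraries 23 and 3 genes in the 2 comparisons of embWPC ALBSF. Same-numbered embWPC ALBSF libraries were not paired with either control, with correlations of -0.223 to 0.067 and -0.16 to 0.044. Apart from the Ephb6 call, the block changed no call among the 8 genes.

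Some signs turned. Efnb2 in Ctrl PMBSF against Ctrl ALBSF was -0.41 with the meningeal covariate and -0.11 to 0.33 without single libraries. In embWPC ALBSF against Ctrl PMBSF, Ephb6 was -0.26 with the meningeal covariate, whose levels did not overlap between these groups. In that comparison Ephb3 was -0.02 by limma voom, -0.01 with library totals only, -0.07 with the endothelial covariate and -0.07 to 0.12 without single libraries. Efnb2 was -0.04 with library totals only, -0.15 with the endothelial covariate and -0.17 to 0.27 without single libraries, and Ephb1 was -0.10 to 0.01. Counts of 48 to 126 limit the precision of Efnb2.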
